A study of Homo sapiens with 24 samples.

Results

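The RAB genes encode the largest branch of the small GTPases, and their mRNAs were described here in 4 human cell lines that carry extra chromosomes, each compared with its own parental line. Members were chosen by symbol alone, as RAB followed by digits and at most 1 letter, so that no fold change entered the choice. Of 16742 genes in the 4 tables, 56 had such a symbol and none of them was a pseudogene. A mean normalized count of at least 10 in 1 table or more was reached by 53, whereas RAB33A, RAB41 and RAB42 stayed under it in every table that listed them and were not followed further.

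The study sequenced mRNA from 8 groups of 3 libraries each, 24 libraries in all. HCT116 is a near-diploid human colorectal carcinoma line, and HCT116 5/4 is a derivative with 4 copies of chromosome 5. HCT116* is HCT116 that stably expresses the fluorescent histone H2B-GFP, and HCT116* 8/3 c7 is clone 7 of that background with 3 copies of chromosome 8. RPE1 is a retinal pigment epithelium line immortalized with hTERT, and RPE1 5/3 12/3 carries 3 copies each of chromosomes 5 and 12, of which chromosome 12 was gained without having been transferred. RPE1* expresses H2B-GFP and hTERT, and RPE1* 21/3 is its derivative with 3 copies of chromosome 21. The asterisk marks H2B-GFP, which both members of such a pair carried. HCT116 5/4 and its parental HCT116 both came from another laboratory, and the 3 other aneuploid lines were made by microcell-mediated chromosome transfer. Clone 7 grew from a single cell, and with 1 line per gain the gained chromosome and any other change fixed in that line cannot be told apart. Of markers of the labelled tissues, EPCAM had a mean of 4192 and 5683 in the HCT116 and HCT116* tables, where VIL1 had no row. OTX2 (715 and 419) and MITF (1439 and 1124) were present in the RPE1 and RPE1* tables, whereas RPE65 was near the minimum (10.4 and 4.58) and TYR and TTR had no row. Among the blood cell markers PTPRC was highest, at 10.9 in the RPE1* table.

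A RAB protein cycles between a GDP-bound, soluble state and a GTP-bound state anchored in a membrane by prenyl groups. Guanine nucleotide exchange factors (GEFs) switch it on, GTPase-activating proteins (GAPs) switch it off, and effectors such as tethers and motor adaptors bind the active form. Each RAB marks particular membranes, such as RAB1 between the endoplasmic reticulum and the Golgi, RAB5 on early endosomes, RAB7 on late endosomes, RAB11 on recycling endosomes and RAB27 on secretory vesicles. Several RABs exist as paralogues with the same number and a different letter.

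A gene was called changed where the adjusted p of the deposited DESeq2 test was under 0.05 and the log2 fold change of aneuploid over parental line lay beyond 0.6 in either direction, once its mean reached 10. By this rule 18 of the 53 RAB genes changed in 1 line or more and 35 in none, a share to be read beside a background of 31%, the part of the 15168 genes tested anywhere that the rule called in 1 line or more. In HCT116 5/4 the rule called 11 of 50 RAB genes (22%), 3 higher and 8 lower, beside 20.6% of all 13887 genes tested (10.8% higher and 9.83% lower). RPE1 5/3 12/3 had 12 of 49 (24.5%), 8 higher and 4 lower, beside a background of 16.6% (8.13% higher and 8.47% lower). RPE1* 21/3 had 2 of 50 (4%), both lower, beside 3.31% (1.66% higher and 1.65% lower). None of 49 was called in HCT116* 8/3 c7, where the DESeq2 background was also low at 1.8% (0.945% higher and 0.858% lower), and where 3 RAB genes had an unadjusted p under 0.05 and 1 an adjusted p under 0.05. The share of RAB genes called was close to that of all genes in HCT116 5/4 and RPE1* 21/3. It was above it in RPE1 5/3 12/3 and below it in HCT116* 8/3 c7, and these shares were not tested against each other. The median log2 fold change of the RAB genes was between -0.03 in RPE1 5/3 12/3 and 0.01 in RPE1* 21/3, and the median over all genes tested lay between -0.00044 and 0.0061.

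**Figure D1:**
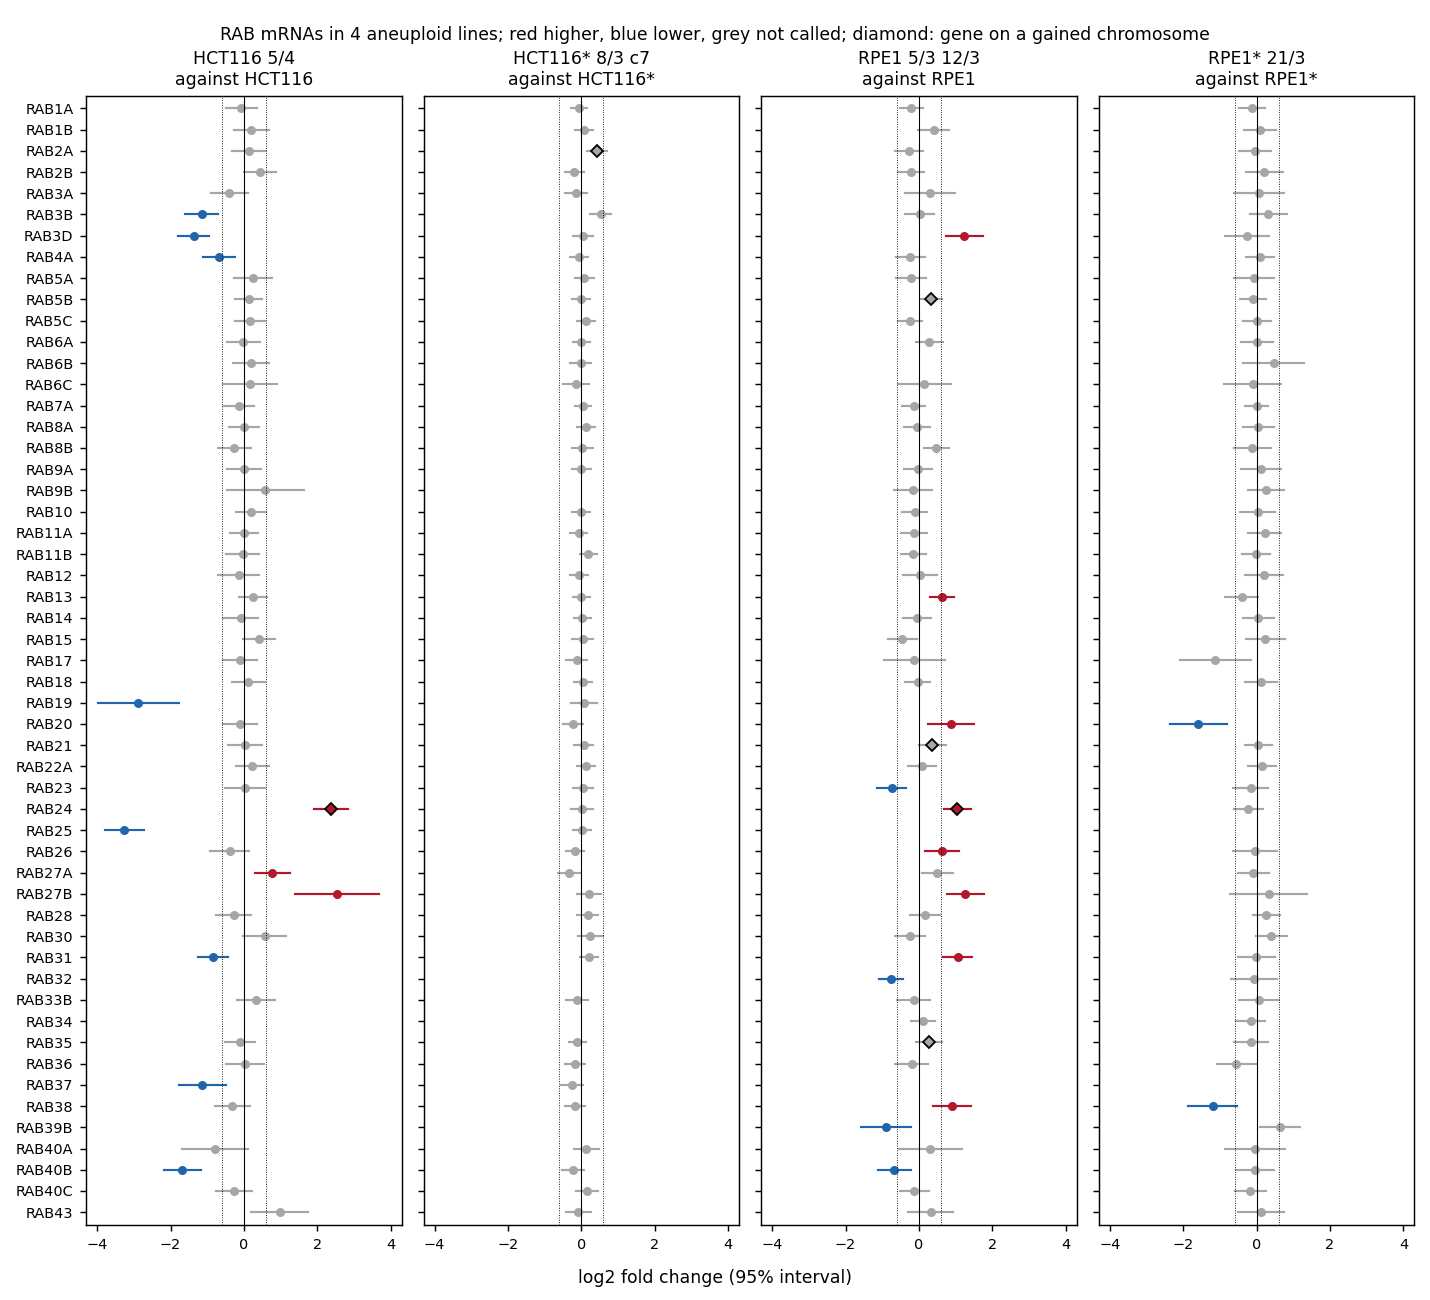
Deposited log2 fold change of each RAB mRNA (rows) in the 4 aneuploid lines against their parental lines (panels, 3 libraries per group); bars are 95% intervals, dotted lines the 0.6 threshold, red and blue points the genes called higher and lower, and diamonds genes on a gained chromosome. The calls lie in HCT116 5/4 (11) and RPE1 5/3 12/3 (12), with 2 in RPE1* 21/3 and none in HCT116* 8/3 c7.

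Of the 35 RAB genes that changed in no line, several with well-known routes are named here, chosen after their values were seen. RAB1A and RAB1B (endoplasmic reticulum to Golgi), RAB2A, RAB5A, RAB5B and RAB5C (early endosome), RAB6A (Golgi), RAB7A (late endosome), RAB8A and RAB10 (transport to the plasma membrane), RAB11A and RAB11B (recycling endosome), RAB14 and RAB18 had log2 fold changes between -0.28 and 0.42 over all 4 lines. Uncalled paralogues of these genes went beyond this range: RAB2B (0.44 in HCT116 5/4), RAB6B (0.47 in RPE1* 21/3) and RAB8B (0.47 in RPE1 5/3 12/3). Among the 32 genes that passed the minimum in all 4 tables without a call, 29 stayed within 0.6 in every line. The other 3 were RAB17, RAB40A and RAB43. Genes without a call are more likely to lie within 0.6 by the rule itself, and the same share over all genes was not computed. RAB43 stood at 0.98 ± 0.39 (SE) in HCT116 5/4 with an adjusted p of 0.061, and the gene lies within the readthrough gene ISY1-RAB43 on the same strand, so that its reads are not assigned with certainty. RAB17, an epithelial RAB, was at -1.12 ± 0.50 in RPE1* 21/3 with a mean of only 13.6 and an adjusted p of 0.34. RAB40A was at -0.78 ± 0.46 in HCT116 5/4 with an adjusted p of 0.25.

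Several of these RABs were also among the most abundant RAB mRNAs. Per kilobase of transcript, RAB1B ranked between the 95.6th and the 97.1st percentile of the genes that reached a mean of 10 in each table, RAB7A between the 95.6th and the 96.2nd, and RAB5C between the 94.0th and the 95.2nd. Low in all tables were RAB40A (7.5th to 9.3rd percentile), RAB43 (5.7th to 9.0th) and RAB6C (7.1st to 12.6th). RAB6C is an intronless copy of RAB6A, with which it shares near-identical sequence, and its value is uncertain for that reason. A few members passed the minimum in 1 parental background only. RAB25, RAB19 and RAB37 passed it in both HCT116 tables and in neither RPE1 table, and RAB32, RAB34 and RAB39B in both RPE1 tables and in neither HCT116 table. RAB37 missed it narrowly, with means of 8.42 and 8.82 in the RPE1 and RPE1* tables. The share of all genes that passed in 1 background only was not computed, so these members are not read as a trait of RAB genes. RAB25, an epithelial relative of RAB11, was at the 92.5th percentile in the HCT116* table, and RAB34 was at the 94.9th and 94.7th percentile in the RPE1 and RPE1* tables with means of 6.32 and 5.02 in those of HCT116 and HCT116*. These ranks come from separately normalized tables and were compared as ranks only.

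**Figure D2:**
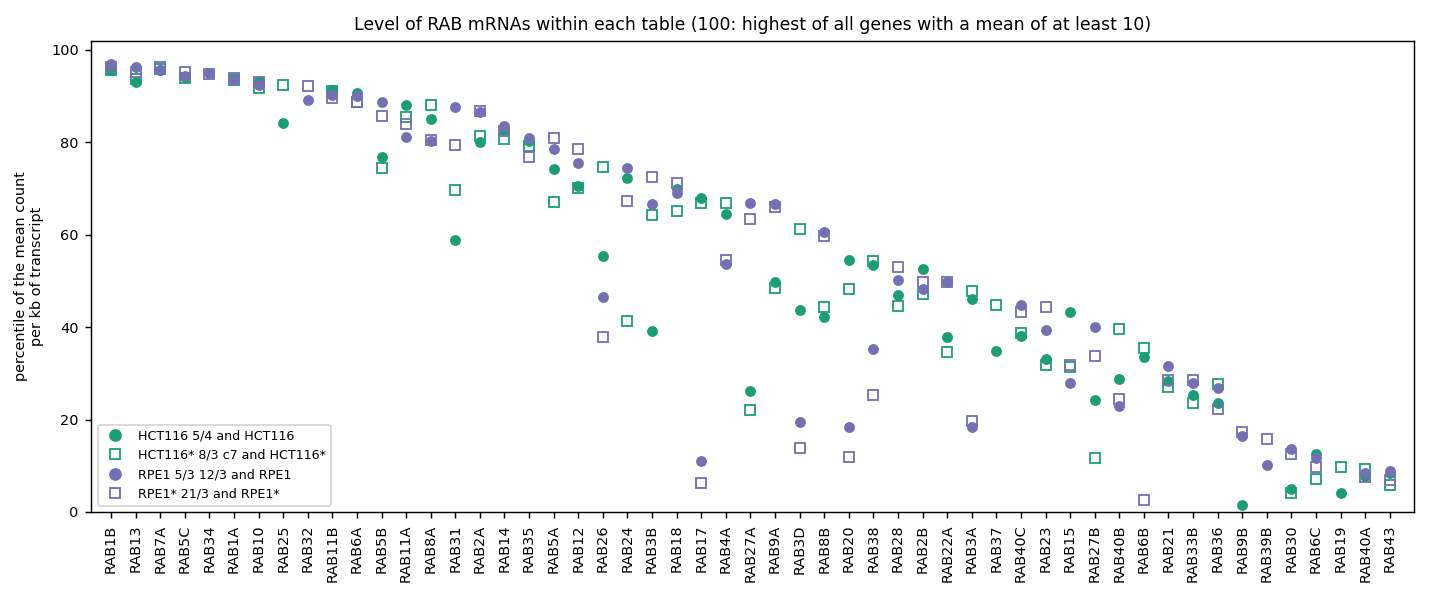
Percentile rank of each RAB mRNA by mean normalized count per kilobase of transcript, within each of the 4 tables (colour: parental background, filled or open symbol: without or with H2B-GFP), genes in order of their level. RAB1B, RAB13, RAB7A and RAB5C sit above the 90th percentile in all 4 tables, whereas RAB17, RAB20 and RAB3D lie lower in both RPE1 tables than in both HCT116 tables.

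The files hold a mean over 6 libraries and a fold change, not single libraries. Where a level is given for a group, it was derived from these values and is approximate. RAB24, an atypical RAB with a role in autophagy, gave a derived mean of 201 in HCT116 and 1036 in HCT116 5/4, a log2 fold change of 2.36 ± 0.24 (SE, adjusted p = 1.55e-21). In RPE1 it was 482 and in RPE1 5/3 12/3 995, a log2 fold change of 1.05 ± 0.19 (adjusted p = 1.06e-06). The gene lies at chr5:176728199-176730745 on the minus strand of GRCh37, hence on the chromosome that both of these lines gained. In the lines without a gain of chromosome 5, RAB24 was at 0.0091 ± 0.15 in HCT116* 8/3 c7 and at -0.22 ± 0.20 in RPE1* 21/3. RAB24 was therefore higher only in the lines with extra copies of its chromosome, and the difference from each line without them passed the test (log2 differences of 2.36, 2.59, 1.04 and 1.27 in size).

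Set against copy number, RAB24 rose by more than its dose. With 4 copies instead of 2 the log2 copy ratio of chromosome 5 in HCT116 5/4 is 1, and RAB24 exceeded it by 1.36 (95% interval 0.90 to 1.83). The ratio in RPE1 5/3 12/3 is 0.58, which RAB24 exceeded by 0.46 (0.086 to 0.83). The median of the 617 chromosome 5 genes in HCT116 5/4 was 0.79, with 88.2% of them below RAB24, and the median of 619 in RPE1 5/3 12/3 was 0.53, with 85.6% below. RAB24 was thus high among its chromosome, but 72 and 88 genes stood above it. GENCODE draws a model of MXD3, a partner of MAX in the MYC network, over 2284 bases of RAB24 on the same strand, and MXD3 was at 1.67 ± 0.28 in HCT116 5/4 (adjusted p = 3.86e-08) and 0.38 ± 0.26 in RPE1 5/3 12/3 (adjusted p = 0.38). In the RefSeq gene table, on GRCh38.p14, MXD3 and RAB24 do not overlap and 1779 bases lie between them. PRELID1, whose start faces that of RAB24 across 79 bases in the same table, was at 0.74 ± 0.25 and 0.62 ± 0.23 (adjusted p = 0.020 and 0.041). RAB24 stood above both neighbours in both lines; whether reads were shared among them was not tested.

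The remaining members on gained chromosomes were not called, and their values lay below the log2 copy ratio of their chromosome. RAB2A (chromosome 8), which acts at the Golgi, was at 0.42 (0.16 to 0.68, adjusted p = 0.053) in HCT116* 8/3 c7, where the log2 copy ratio is 0.58 and the median of 465 chromosome 8 genes was 0.22. Chromosome 12 holds RAB5B, RAB21, an endosomal RAB linked to integrin traffic, and RAB35, which acts in endocytic recycling. In RPE1 5/3 12/3 they were at 0.34 (0.045 to 0.63), 0.36 (-0.0042 to 0.73) and 0.28 (-0.073 to 0.62), with adjusted p of 0.10, 0.18 and 0.34, beside a median of 0.43 over 685 genes. The interval of each of these 4 genes included its copy ratio. Those of RAB21 and RAB35 also included 0, so these values do not tell a rise by dose from no rise. No RAB gene lies on chromosome 21.

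**Figure D3:**
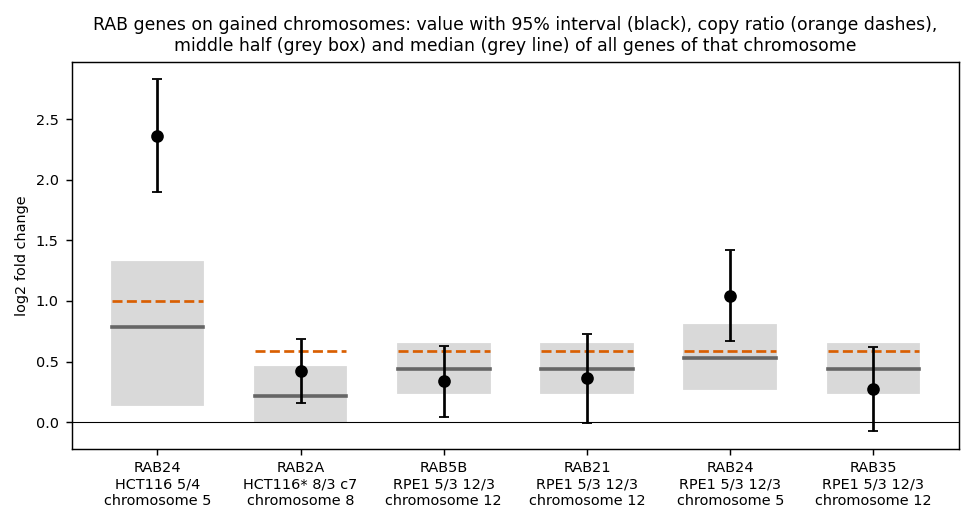
Deposited log2 fold change with 95% interval (black) of each RAB gene that lies on a chromosome gained in the named line, beside the log2 copy ratio (orange dashes) and the middle 50% and median of all genes of that chromosome (grey). RAB24 lies above its copy ratio in both lines with extra chromosome 5, and the intervals of RAB2A, RAB5B, RAB21 and RAB35 include theirs.

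The largest fall was that of RAB25. Its derived mean was 1339 in HCT116 and 139 in HCT116 5/4, a 9.60-fold lower level (log2 fold change -3.26 ± 0.27, adjusted p = 4.78e-31), whereas in HCT116* 8/3 c7 it was 1584 beside 1577 in HCT116*. RAB25 is known from recycling endosomes of epithelial cells. Markers of colorectal epithelium moved in the same line: of 6 of the 8 listed markers that passed the minimum, EPCAM (-2.57), CDH1 (-2.34) and KRT20 (-3.26) fell and KRT8 (1.25) and KRT18 (1.57) rose, CDX2 was at -0.43 with an adjusted p of 0.20, and the summed mean of the list was 97564. The mesenchymal markers VIM (2.74) and FN1 (0.90) rose and COL1A1 (-0.99) fell. None of the colorectal or mesenchymal markers was called in HCT116* 8/3 c7 by the DESeq2 test, with 1 of each list at an unadjusted p under 0.05. In whole cultures, fewer cells of one kind and less RNA per cell cannot be told apart, and the part of these markers in the fall of RAB25 was not tested. RAB19 also fell in HCT116 5/4, from a derived mean of 30.1 to 4.10 (-2.88 ± 0.56, adjusted p = 4.38e-06), at a low mean of 17.1. RAB37, a RAB of secretory granules, fell by 1.13 ± 0.32 on the log2 scale (adjusted p = 0.0037) and RAB4A, which serves fast recycling, by 0.67 ± 0.22 (adjusted p = 0.016).

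RAB27A and RAB27B act in the docking and release of secretory vesicles, exosomes and melanosomes. RAB27B rose in both lines with extra chromosome 5, although it lies on chromosome 18. Its derived mean went from 114 to 663 in HCT116 5/4 (log2 fold change 2.54 ± 0.59, adjusted p = 0.00020) and from 503 to 1209 in RPE1 5/3 12/3 (1.27 ± 0.26, adjusted p = 2.73e-05). The standard error in HCT116 5/4 was more than 2 times that of most members, whose median was 0.24. In HCT116* 8/3 c7 and RPE1* 21/3 RAB27B was at 0.21 ± 0.16 and 0.33 ± 0.54 and was not called. Neither line with extra chromosome 5 passed the normal test over all genes for its RAB27B difference from RPE1* 21/3. That difference was 2.21 (0.64 to 3.78, adjusted p = 0.054 by this test) for HCT116 5/4. For RPE1 5/3 12/3 it was 0.94 (-0.24 to 2.12, adjusted p = 0.45). GENCODE draws PIGBOS1 over 1930 bases of RAB27A on the same strand, and whether reads were shared was not tested. RAB27A rose in HCT116 5/4 (0.77 ± 0.24, adjusted p = 0.010) and was at 0.50 ± 0.21 in RPE1 5/3 12/3 with an adjusted p of 0.091. RAB27A minus RAB27B was -1.77 (95% interval -3.02 to -0.51) in the former and -0.77 (-1.44 to -0.10) in the latter. It was also negative in HCT116* 8/3 c7, which has no extra chromosome 5, at -0.55 (-0.99 to -0.11), and was -0.42 (-1.56 to 0.72) in RPE1* 21/3.

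RAB40B, whose family carries a SOCS box and joins ubiquitin ligases, fell in both lines. The derived mean went from 415 to 130 in HCT116 5/4 (-1.68 ± 0.26, adjusted p = 2.02e-09) and from 234 to 146 in RPE1 5/3 12/3 (-0.67 ± 0.23, adjusted p = 0.019). The fall was larger in HCT116 5/4 (log2 difference -1.00, 95% interval -1.68 to -0.33, adjusted p = 0.023). RAB40C did not follow it in HCT116 5/4 (-0.28), and RAB40B minus RAB40C was -1.40 there (95% interval -2.11 to -0.70). RAB40B was at -0.24 in HCT116* 8/3 c7 and at -0.046 in RPE1* 21/3 and was not called there. The RAB40B value of RPE1 5/3 12/3 did not differ from either by the normal test over all genes (adjusted p = 0.35 and 0.32). RAB40B and RAB37 both lie on the long arm of chromosome 17, where the other genes within 5 Mb had medians of -0.52 (85 genes) and -0.48 (89 genes) in HCT116 5/4. Relative to these medians RAB40B was at -1.16 and RAB37 at -0.65.

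For 42 of the 53 members RefSeq gave the 250 bases before the gene start (GRCh38.p14). A GC box (GGGCGG) occurred on either strand in 35 of 42, beside 42.6% of 35116 promoters, and the median GC content was 65.4% beside 58%. Those promoters outnumber the 16742 genes measured here and were not limited to expressed genes, as the members were. The shares are therefore of unlike sets. The E-box CACGTG was found in RAB4A, RAB5A, RAB21, RAB24 and RAB31 (5 of 42, beside 6.34%), the TATA box TATAAA in RAB6C and RAB40A (2 of 42, beside 10.7%) and the AP-1 site TGACTCA in RAB3B and RAB5B (2 of 42, beside 4.20%). The members called in both lines with extra chromosome 5 in the same direction, and RAB25 with its large fall, are shown 5′ to 3′ with matches in capitals. The share of all genes called in the same direction in both of these lines was not computed, so this choice is not read as a result about RAB genes. For RAB24 the 79 bases up to PRELID1 are given, chr5:177303720-177303798 on the minus strand, and for RAB25 chr1:156060910-156061159 and RAB27B chr18:54717607-54717856 on the plus strand and RAB40B chr17:82698699-82698948 on the minus strand.
RAB24: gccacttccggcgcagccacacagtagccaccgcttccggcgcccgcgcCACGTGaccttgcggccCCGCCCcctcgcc
RAB27B: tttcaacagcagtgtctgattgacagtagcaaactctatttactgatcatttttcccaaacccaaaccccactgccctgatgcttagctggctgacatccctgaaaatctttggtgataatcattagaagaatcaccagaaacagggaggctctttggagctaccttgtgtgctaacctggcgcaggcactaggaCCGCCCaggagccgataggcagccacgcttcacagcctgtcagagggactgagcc
RAB40B: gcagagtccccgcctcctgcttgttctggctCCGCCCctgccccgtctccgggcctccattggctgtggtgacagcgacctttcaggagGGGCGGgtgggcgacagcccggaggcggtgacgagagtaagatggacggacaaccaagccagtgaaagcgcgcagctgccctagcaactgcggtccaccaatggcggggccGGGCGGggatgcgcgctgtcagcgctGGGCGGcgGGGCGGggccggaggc
RAB25: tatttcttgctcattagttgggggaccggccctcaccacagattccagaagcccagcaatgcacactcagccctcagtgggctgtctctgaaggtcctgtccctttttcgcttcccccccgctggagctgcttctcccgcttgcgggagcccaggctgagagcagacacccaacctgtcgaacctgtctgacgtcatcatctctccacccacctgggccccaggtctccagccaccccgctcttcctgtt
RAB24 held 1 E-box and 1 GC box, RAB27B 1 GC box, RAB40B 5 GC boxes and RAB25 none of the 4 motifs. A match is a string of letters in this window, and binding was not measured.

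The genes RAB3D, RAB31, RAB20 and RAB38, 4 of the 53 members, were each called higher in 1 line and lower in another. The share of all genes with opposite calls was not computed, so this count is not read as a trait of RAB genes. RAB3D, a RAB of regulated exocytosis, fell in HCT116 5/4 (-1.36 ± 0.21, adjusted p = 6.65e-09) and rose in RPE1 5/3 12/3 (1.24 ± 0.26, adjusted p = 3.16e-05), a log2 difference of -2.60 (-3.26 to -1.94). GENCODE draws the gene over parts of its neighbours, among them TMEM205 on the same strand over 3495 bases. Reads were counted on RefSeq exons, and whether any were shared with these neighbours was not tested. RAB31, which acts between the trans-Golgi network and endosomes, fell from a derived mean of 1210 to 674 in HCT116 5/4 (-0.84 ± 0.21, adjusted p = 0.00045) and rose from 2397 to 4970 in RPE1 5/3 12/3 (1.05 ± 0.21, adjusted p = 6.8e-06). The log2 difference between both lines was -1.90 (-2.47 to -1.32).

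RAB20, found on phagosomes and endosomes, and RAB38, which serves melanosomes and other lysosome-related organelles, took opposite directions in the 2 RPE1 backgrounds. RAB20 was at 0.88 ± 0.32 (adjusted p = 0.032) in RPE1 5/3 12/3 and at -1.59 ± 0.40 (adjusted p = 0.0040) in RPE1* 21/3. RAB38 was at 0.90 ± 0.27 (adjusted p = 0.0055) and at -1.20 ± 0.34 (adjusted p = 0.014). The differences between these lines were 2.46 (1.46 to 3.47) and 2.11 (1.27 to 2.94). All of these rest on low means, 52.2 and 26.1 for RAB20 and 143.5 and 74.1 for RAB38. RAB38 lies on the long arm of chromosome 11, where 18 other genes within 5 Mb had a median of 0.50 in RPE1 5/3 12/3 and of 0.053 in RPE1* 21/3, and RAB38 exceeded the first by 0.41. The windows of RAB1B, RAB6A and RAB30, also on chromosome 11, had medians of 0.35, 0.38 and 0.39 in RPE1 5/3 12/3, a chromosome that the labels do not name as gained. RAB32, the closest relative of RAB38, fell in RPE1 5/3 12/3 (-0.76 ± 0.17, adjusted p = 9.48e-05), the line in which RAB38 rose. MITF, a regulator of pigment cells, fell there by 1.03 ± 0.21 on the log2 scale. Of the retinal pigment epithelium markers in that line, RPE65 (-3.27) and BEST1 (-1.23) also fell, RLBP1 (3.35) rose, OTX2 (0.00069) and PMEL (0.72) were not called, and the summed mean of the list was 2258. The part of these markers in the RAB changes was not tested.

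RPE1 5/3 12/3 held further rises of RAB13, a RAB of tight junctions (0.63 ± 0.16, adjusted p = 0.0011), and of RAB26, which is found on secretory granules (0.63 ± 0.23, adjusted p = 0.035). RAB23, an inhibitor of hedgehog signalling, fell there (-0.75 ± 0.20, adjusted p = 0.0018), as did RAB39B, a neuronal RAB (-0.91 ± 0.35, adjusted p = 0.049, mean 50.9). RAB13 and RAB26 lay near the threshold of 0.6.

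**Figure D4:**
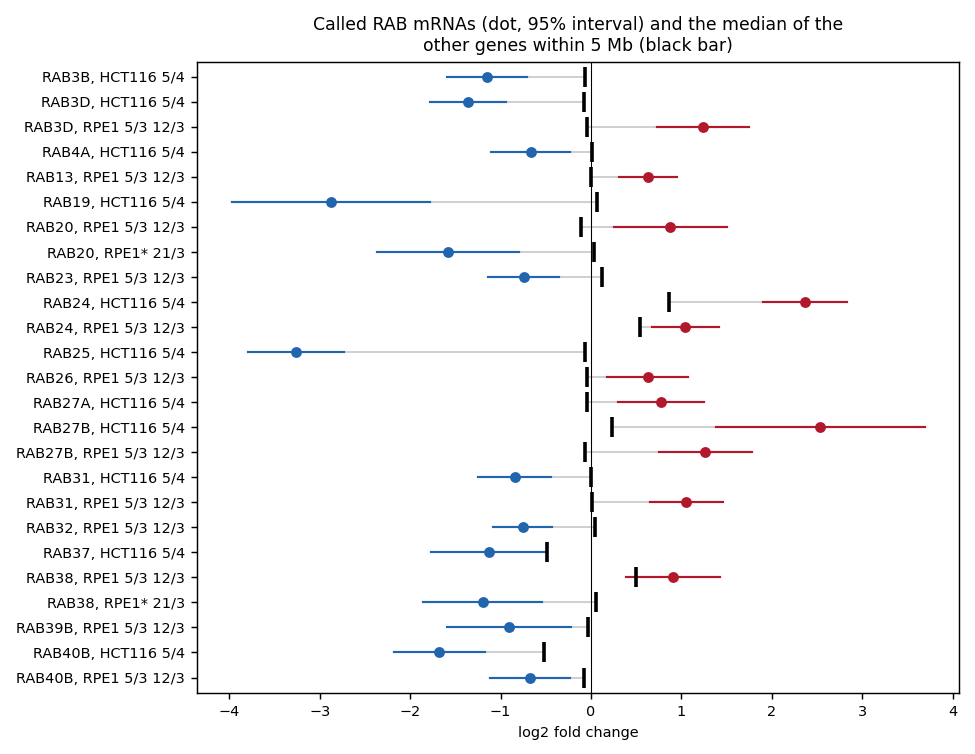
Log2 fold change with 95% interval of each RAB mRNA called in a line (red higher, blue lower) and the median of the other genes within 5 Mb in the same line (black bar). The median lies between -0.11 and 0.23 except for RAB24 in both lines with extra chromosome 5, RAB37 and RAB40B in HCT116 5/4 and RAB38 in RPE1 5/3 12/3.

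Paralogues of 1 RAB could be compared in 10 groups of 24 members, giving 69 pairs of log2 fold changes within a line. The 95% interval of the difference left out 0 in 4 of 18 pairs in HCT116 5/4, 4 of 17 in HCT116* 8/3 c7, 8 of 16 in RPE1 5/3 12/3 and 0 of 18 in RPE1* 21/3. Over all pairs of genes tested in a line the share was 36.3%, 10.9%, 33.7% and 11.3% in the same order. The errors of both genes were taken as independent, and these intervals carry no adjustment for their number. The widest differences were within RAB27 and RAB40 in HCT116 5/4, given above. The RAB3 paralogues all serve regulated exocytosis. RAB3B fell alongside RAB3D in HCT116 5/4 (-1.15 ± 0.23, adjusted p = 6.23e-06), and RAB3A was at -0.40 there, higher than RAB3B by 0.76 (0.081 to 1.43) and than RAB3D by 0.97 (0.30 to 1.63). In RPE1 5/3 12/3 RAB3D exceeded RAB3B, at 0.016, by 1.22 (0.57 to 1.87). RAB3B was the highest member in HCT116* 8/3 c7 at 0.52 ± 0.14 (adjusted p = 0.012), under the threshold of 0.6 and above RAB3A by 0.66 (0.25 to 1.07). The RAB3B values of both HCT116 backgrounds differed by -1.68 (-2.20 to -1.15).

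Some paralogues on gained chromosomes stood apart from those elsewhere. RAB2A (chromosome 8) exceeded RAB2B (chromosome 14) in HCT116* 8/3 c7 by 0.61 (0.24 to 0.98). RAB5B (chromosome 12) exceeded RAB5A by 0.56 (0.051 to 1.07) and RAB5C by 0.58 (0.14 to 1.01) in RPE1 5/3 12/3. None of these genes was called on its own. In the same line RAB1B exceeded RAB1A by 0.61 (0.094 to 1.13) and RAB8B exceeded RAB8A by 0.52 (0.034 to 1.00), with none of the 4 on a gained chromosome, RAB1B in the raised window of chromosome 11 and RAB8B at 0.47 with an adjusted p of 0.029. For RAB6, RAB9 and RAB11 the interval of every pair in every line included 0. Per kilobase, RAB6A stood 9.68 to 204 times above RAB6B in the 3 tables where both passed the minimum, and RAB5C stood 1.89 to 3.83 times above RAB5B in all 4. RAB3B stood 8.86 and 16.7 times above RAB3D in the RPE1 and RPE1* tables and 0.84 and 1.10 times in those of HCT116 and HCT116*.

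**Figure D5:**
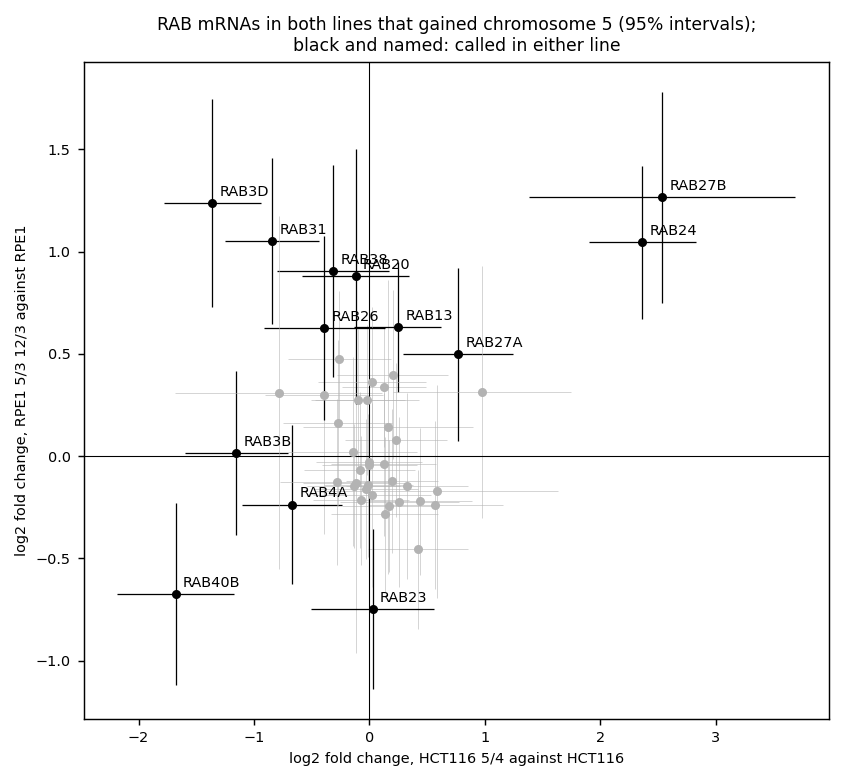
Log2 fold change of each RAB mRNA in HCT116 5/4 (x) against RPE1 5/3 12/3 (y), the 2 lines with extra chromosome 5, with 95% intervals; named points were called in either line. RAB24 and RAB27B are high and RAB40B low in both, whereas RAB3D and RAB31 are low in HCT116 5/4 and high in RPE1 5/3 12/3. The shares of all genes called in the same or in opposite directions in these lines were not computed.

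A call in 1 line and none in another does not show a difference, so the fold changes of each pair of lines were tested against each other over all genes. No library entered both sides of such a test. HCT116 5/4 and HCT116* 8/3 c7 differed in 9 of 49 RAB genes (18.4%, beside 18.9% of all genes). HCT116 5/4 differed from RPE1 5/3 12/3 in 8 of 46 (17.4% beside 18.5%) and from RPE1* 21/3 in 5 of 47 (10.6% beside 10.5%). RPE1 5/3 12/3 differed from HCT116* 8/3 c7 in 11 of 45 (24.4% beside 14.9%) and from RPE1* 21/3 in 7 of 49 (14.3% beside 9.32%). These shares were not tested against each other. HCT116* 8/3 c7 and RPE1* 21/3 differed in 0 of 46 by this test (2.57% of all genes), with 2 RAB genes at an unadjusted p under 0.05.

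The proteins that run the RAB cycle were followed through 147 genes in 5 lists. Of those with a mean of at least 10, 23 of 142 were called in HCT116 5/4 (13 higher, 10 lower), 2 of 142 in HCT116* 8/3 c7 (both higher), 19 of 139 in RPE1 5/3 12/3 (11 higher, 8 lower) and 1 of 138 in RPE1* 21/3 (lower). These shares of 16.2%, 1.41%, 13.7% and 0.72% stand beside backgrounds of 20.6%, 1.8%, 16.6% and 3.31%. The enzymes and carriers that prenylate RABs and take them on and off membranes gave no call in any line by the DESeq2 test. The 7 genes, RABGGTA and RABGGTB (geranylgeranyl transferase), CHM and CHML (escort proteins), GDI2 (a dissociation inhibitor), RABAC1 and RABIF, all lay between -0.39 and 0.50 in every line. The count at an unadjusted p under 0.05 was 1 in HCT116 5/4, 1 in RPE1 5/3 12/3 (RABGGTB at 0.47, adjusted p = 0.026) and 0 in the other lines.

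Exchange factors were called in 5 of 39 cases (12.8%) in HCT116 5/4 and 6 of 37 (16.2%) in RPE1 5/3 12/3. The shares of all genes were 20.6% and 16.6%. In HCT116 5/4, RINL, a RAB5-type exchange factor (-4.62 ± 0.28), DENND1C (-2.25) and DENND2D (-0.70) fell, while SBF1 (0.87) rose. In RPE1 5/3 12/3, RIN1 (0.99), DENND5B on chromosome 12 (0.82) and RIN2 (0.60) rose and FAM116B, also called DENND6B (-0.66), fell. GAPs were called in 8 of 35 (22.9%) and 3 of 33 (9.09%) cases in these lines, beside the same shares of all genes. TBC1D4, which acts on RAB10 in glucose transporter traffic, rose in both, by 1.30 ± 0.23 and 0.70 ± 0.18. TBC1D2 (1.26) and TBC1D9B on chromosome 5 (0.72) also rose in HCT116 5/4, and RABGAP1 (-1.06), TBC1D16 (-0.81) and TBC1D14 (-0.63) fell. In RPE1 5/3 12/3 TBC1D8 rose (0.72) and TBC1D8B fell (-0.79). No exchange factor or GAP was called in HCT116* 8/3 c7 or RPE1* 21/3 by the DESeq2 test, where the counts at an unadjusted p under 0.05 were 2 and 2 of the exchange factors and 2 and 1 of the GAPs.

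Of 59 effectors, 9 were called in HCT116 5/4 and 9 in RPE1 5/3 12/3, 15.3% in each, beside 20.6% and 16.6% of all genes. Effectors of RAB27 were among them. SYTL4 (1.62 ± 0.23), MLPH (1.22 ± 0.21) and SYTL2 (1.08 ± 0.27) rose in HCT116 5/4, where SYTL3 (-1.55 ± 0.25) and UNC13D (-0.89 ± 0.26) fell. SYTL2 rose in RPE1 5/3 12/3 as well (1.52 ± 0.21). UNC13D, which primes secretory granules, rose in HCT116* 8/3 c7 (0.75 ± 0.14). The second call in that line, named after its value was seen because its mean of 67.4 is low, was RIMS2 (1.49), an active-zone protein on chromosome 8. In RPE1 5/3 12/3 the mitotic kinesin KIF20A on chromosome 5 (1.54) and RILPL2 on chromosome 12 (0.81) rose, and MYO5C (-3.10), RAB11FIP1 (-2.11) and RIMS1 (-1.99) fell. MYO5C, a class V myosin, was also the only call among the 138 genes in RPE1* 21/3 (-1.32 ± 0.20). PPM1H, a phosphatase of RABs, fell in HCT116 5/4 (-0.62) and, although on the gained chromosome 12, in RPE1 5/3 12/3 (-1.90), and was named after its values were seen.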

How the data were processed

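Total RNA of 24 libraries (TruSeq, HiSeq2500, single reads) was processed by the authors: adapters were removed with cutadapt, reads were aligned to hg19 with TopHat2 2.0.10 keeping 1 location per read, and exon reads were counted per RefSeq gene with featureCounts 1.4.3. The sources used here do not state a strand option. In GENCODE some called members, such as RAB19, RAB23 and RAB37, overlap a gene on the opposite strand, and whether reads were shared there was not tested. The deposited tables hold the authors' DESeq2 comparison of 3 aneuploid with 3 parental libraries, and no values of single libraries. Their columns are a mean normalized signal over 6 libraries (signal, counts divided by size factors by the authors), a deposited log2 fold change, a deposited score each for its standard error and its Wald statistic, and a deposited p-value with its adjusted form. These values were taken as deposited and are the authors' own fits, since the RAB genes can be measured in no other way from these files. Adjusted p-values in the text are those the authors deposited from the DESeq2 Wald test, adjusted by Benjamini-Hochberg over each table.

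RAB genes were taken by symbol, and genes were called at an adjusted p under 0.05, a log2 fold change beyond 0.6 in either direction and a mean of at least 10. Intervals are 95% normal intervals from the deposited standard error. Differences between lines were tested as the difference over the root of the summed squared standard errors (two-sided normal p, Benjamini-Hochberg over every gene whose mean reached 10 in both tables), and paralogues were compared by interval only. Only some of the steps were run on simulated data. Those runs do not show how the steps perform on the deposited values, and no result here rests on them. Group means were derived from the mean and the fold change. Positions came from GENCODE v44lift37 on GRCh37 by symbol or older symbol (95.7 to 95.9% of genes placed), and upstream sequences from RefSeq on GRCh38.p14. Levels between genes were compared per kilobase of the canonical GENCODE transcript. Named genes were every RAB gene called, on a gained chromosome or with a measured paralogue, all prenylation genes, and per list and line up to 3 rises and 3 falls with a mean of at least 100. A listed gene that is not reported here was left out of the lists. Members, lists and tests were chosen with earlier results of these data known. The labels do not say that libraries of a group were separate cultures, so p-values measure the spread between these samples, which may be technical. Since no table gives library totals, depth is unknown and the standard error alone carries the precision. Scripts ran under scipy 1.17.1, pandas 2.3.3, numpy 2.4.6 and matplotlib 3.10.9 in Python 3.11.15.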

Additional observations from a re-analysis of the deposited data

Results flagged for a closer look

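Each RAB gene whose log2 fold change differed between 2 lines by the test over all genes is given here with that difference, as the first line named minus the second.

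HCT116 5/4 differed from HCT116* 8/3 c7 in 6 of the 8 RAB genes that fell in the former, RAB25 (-3.27), RAB19 (-2.95), RAB3B (-1.68), RAB40B (-1.44), RAB3D (-1.40) and RAB31 (-1.04), and in the 3 that rose, RAB24 (2.36), RAB27B (2.33) and RAB27A (1.11). The other two that fell, RAB37 (-0.87, adjusted p = 0.073 by the normal test over all genes) and RAB4A (-0.60, adjusted p = 0.082), did not pass the test of the difference. Its difference from RPE1 5/3 12/3 was negative for RAB3D (-2.60), RAB31 (-1.90), RAB38 (-1.22), RAB3B (-1.17), RAB26 (-1.02) and RAB40B (-1.00) and positive for RAB24 (1.32) and RAB15 (0.88). Neither value of RAB15, a RAB of neuronal recycling endosomes, was called within its own line (0.42 and -0.46). Against RPE1* 21/3 the values were RAB40B (-1.63), RAB3B (-1.48), RAB3D (-1.09), RAB20 (1.47) and RAB24 (2.59).

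HCT116* 8/3 c7 minus RPE1 5/3 12/3 gave RAB3D (-1.20), RAB20 (-1.11), RAB38 (-1.08), RAB27B (-1.06), RAB24 (-1.04), RAB31 (-0.85), RAB27A (-0.84), RAB26 (-0.81), RAB13 (-0.63), RAB2A (0.71) and RAB23 (0.79). RPE1 5/3 12/3 minus RPE1* 21/3 gave RAB20 (2.46), RAB38 (2.11), RAB3D (1.51), RAB24 (1.27), RAB31 (1.07), RAB13 (1.04) and RAB39B (-1.54). RAB39B was at -0.91 in the former and at 0.64 in the latter, where it was not called.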

How the results depend on the processing

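No single library values were in the tables, so that no replicate could be left out. No paired analysis was possible because the tables carry no value per replicate. The count of RAB genes called moved by over 1.5 times under these settings: in HCT116* 8/3 c7 it was 1 (RAB3B) with no fold change threshold or with the prior on the fold changes undone, in RPE1 5/3 12/3 it was 4 at a log2 fold change above 1, and in RPE1* 21/3 it was 0 at a mean of at least 100 and 1 at an adjusted p under 0.01. The count of regulators and effectors at a log2 fold change above 1 was 13 in HCT116 5/4, 1 in HCT116* 8/3 c7 and 9 in RPE1 5/3 12/3, and in HCT116* 8/3 c7 it was 7 with no fold change threshold and 5 with the prior undone. At an adjusted p under 0.01, HCT116 5/4 differed from RPE1 5/3 12/3 in 5 RAB genes and from RPE1* 21/3 in 3, and HCT116* 8/3 c7 differed from RPE1 5/3 12/3 in 5. A stricter threshold or minimum lowers a count by construction. The other 93 recomputed counts and values kept their direction and their side of the threshold or stayed within 1.5 times. Among single genes, values near 0 changed sign: RAB13 in HCT116* 8/3 c7 was -0.0032 when centred on genes outside the gained chromosomes and -0.041 relative to the genes within 5 Mb, and relative to those genes RAB25 in HCT116* 8/3 c7 was -0.024 and RAB40B in RPE1* 21/3 was 0.029. The 5 Mb setting was added after seeing the data. It also brought RAB38 (0.41) and RAB40B (-0.60) in RPE1 5/3 12/3 under the threshold of 0.6, as well as RAB24 (0.50) in that line. The cause of these moves was not tested. The prior shrank fold changes toward 0, most of all in HCT116* 8/3 c7, where undoing it enlarged the median gene by 1.22 times and left the test unchanged, so that sizes there are understated beside the other lines. The ceiling of the standard error from which it was read was poorly defined in HCT116 5/4 and RPE1 5/3 12/3.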
